A study of Mus musculus with 8 samples.

Results

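The genes described are 36 genes of glucose transport, glycolysis, lactate handling, pyruvate dehydrogenase control and the pentose phosphate pathway. They were taken by name from a list of enzymes, isoenzymes and transporters, which was chosen with earlier results of these data known. All 36 were found among the 49315 genes of the count tables, and all 36 passed the filter on low counts that left 16126 genes for testing, with mean levels from 9.11 to 6235 CPM (counts scaled to a common library size). RNA was sequenced from cultured cardiomyocytes of C57/Bl6 mouse embryos at day 12.5, with RNA pooled from male and female embryos. There were 4 libraries of cells in medium with 10 µM simvastatin (SMV) and 4 of cells in control medium (Ctrl). The labels name no genetic change in either group. The series' design speaks of isolated cells in culture, whereas the extraction protocol speaks of RNA from dissected hearts. Totals ran from 30474586 to 34993255 counts in SMV and from 31457872 to 35215640 counts in Ctrl libraries. Whether replicates were separate cultures is not said in any label, and p-values here therefore cover the spread among these samples, part or all of which may be technical.

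Glycolysis splits glucose into pyruvate in the cytosol and yields ATP without oxygen. Lactate dehydrogenase turns pyruvate into lactate, which leaves the cell with a proton through monocarboxylate transporters, whereas pyruvate that a carrier brings into the mitochondrion is turned into acetyl-CoA by the pyruvate dehydrogenase complex, unless pyruvate dehydrogenase kinases switch it off. The pentose phosphate pathway branches off at glucose phosphate and makes NADPH and ribose. The embryonic heart draws much of its ATP from glycolysis and moves to fatty acid oxidation after birth, and many steps use isoenzymes that differ between muscle and other or growing tissue. Simvastatin inhibits HMG-CoA reductase, the enzyme that makes mevalonate for sterols and isoprenoids.

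The file headers assign replicates 1 and 3 of each group to set 1 and replicates 2 and 4 to set 2, with the meaning of a set not given in the sources used here. Of 10 cardiomyocyte markers all were detected, and 1 rose and 0 fell. Their summed level was 49854 to 54807 CPM in SMV and 43479.8 to 53809 CPM in Ctrl libraries. Some markers listed for other cell types also changed, beside 9.61% of all genes tested that fell and 7.79% that rose. Of 6 smooth muscle markers (Myh11, Acta2, Tagln, Cnn1, Smtn and Des) 5 fell. Their sum was 2187 to 2439 CPM in SMV and 4138 to 5035 CPM in Ctrl libraries. Of 9 fibroblast and mesenchyme markers 4 fell, with sums of 1245 to 1456 CPM in SMV libraries, against 2345 and 2572 CPM in the Ctrl libraries of set 1 and 1172 and 1165 CPM in those of set 2. In set 1 alone 7 of these markers fell, and in set 2 alone 0 fell and 3 rose; without SMV replicate 3, Ctrl replicate 1 or Ctrl replicate 3 the count of falls was 0, and without SMV replicate 1 it was 1. Macrophage markers summed to 300.1 to 395 CPM in SMV and 348 to 439 CPM in Ctrl libraries. Of these 8 markers 7 were tested and 3 fell, and C1qa was under 0.5 CPM. Endothelial markers (1 of 8 fell and 2 rose) summed to 226 to 285 CPM in SMV and 221 to 305 CPM in Ctrl libraries, and epicardial markers (2 of 7 fell and 1 rose) to 314 to 333 CPM in SMV and 226 to 354 CPM in Ctrl libraries. Erythroid markers summed to 17.2 to 40.6 CPM in SMV and 8.61 to 13.95 CPM in Ctrl libraries. Of these 10 markers 6 were tested and 3 rose, with Hbb-bh1, Alas2 and Slc4a1 among those under 0.5 CPM. The count of rises ran from 1 (without Ctrl replicate 3) to 4 with a library left out. With a library left out, 1 or 2 endothelial markers rose and 1 or 2 epicardial markers fell. The part of these shifts in the changes below was not tested. In bulk RNA fewer cells of a type and less RNA per cell cannot be told apart. Which cells made the RNA of these markers, the cardiomyocytes included, was not measured.

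With simvastatin, 9 of the 36 genes fell and 4 rose (quasi-likelihood test of edgeR, at an adjusted p under 0.05 over 16126 genes). The falls were in glucose entry (Slc2a1, Slc2a3, Slc2a4, Hk2), in single enzymes of the glycolytic chain (Pfkl, Pgk1, Eno1) and at its lactate end (Ldha, Slc16a3). The rises were Pfkfb4, Eno3, Pdk2 and Pgd. The share that fell was 25%, against 9.61% of all genes tested, and the share that rose was 11.1%, against 7.79%. The median log2 fold change of the 36 genes was -0.22, against 0.01 over all genes, and 25 of the 36 values were negative (69.4%, against 48.8% of all genes). In 7 genes (19.4%) every SMV library lay below every Ctrl library, against 12.1% of all genes, and in 4 (11.1%) every SMV library lay above, against 11% of all genes. Another 6 of the 23 genes without a call had an unadjusted p under 0.05. Together the 36 genes took 4.11%, 3.62%, 3.75% and 4.08% of the scaled total in SMV libraries 1 to 4, against 4.51%, 4.78%, 5.07% and 4.22% in Ctrl libraries 1 to 4, so that the lowest Ctrl library stood above the highest SMV library.

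Not all of these calls were equally firm. Slc2a3, Slc2a4, Hk2, Pfkl, Pgk1, Eno1, Slc16a3 and Pfkfb4 were called under all 18 alternative settings, which included each library left out in turn and each set alone. Slc2a1 was called under 9 of the 18, Ldha under 5, Eno3 under 7, Pdk2 under 11 and Pgd under 8. Their calls without single libraries are given with each gene. Beyond these, Slc2a1 was not called in set 2 alone, Ldha, Eno3 and Pdk2 in neither set alone and Pgd not in set 1 alone. Eno3 and Pgd were also lost with no filter on low counts, and Ldha with DESeq2's size factors, with library totals and with a filter of 1 CPM in 4 libraries. With set as a term in edgeR, 14 of the 36 genes fell, the further ones being Gpi1, Pfkp, Aldoa, Tpi1 and Pfkfb3. All 13 called genes had the same sign in set 1 and set 2, as had 34 of the 36 genes. In set 1 alone 8 fell and 1 rose, against 5.91% and 3.91% of all genes, and in set 2 alone 10 fell and 3 rose, against 11.5% and 6.79%. The test of whether the treatment effect differed between sets called 0 of the 36 genes in edgeR, against 0.0558% of all genes tested, with 2 genes (Pdk1 and Tkt) at an unadjusted p under 0.05.

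**Figure D1:**
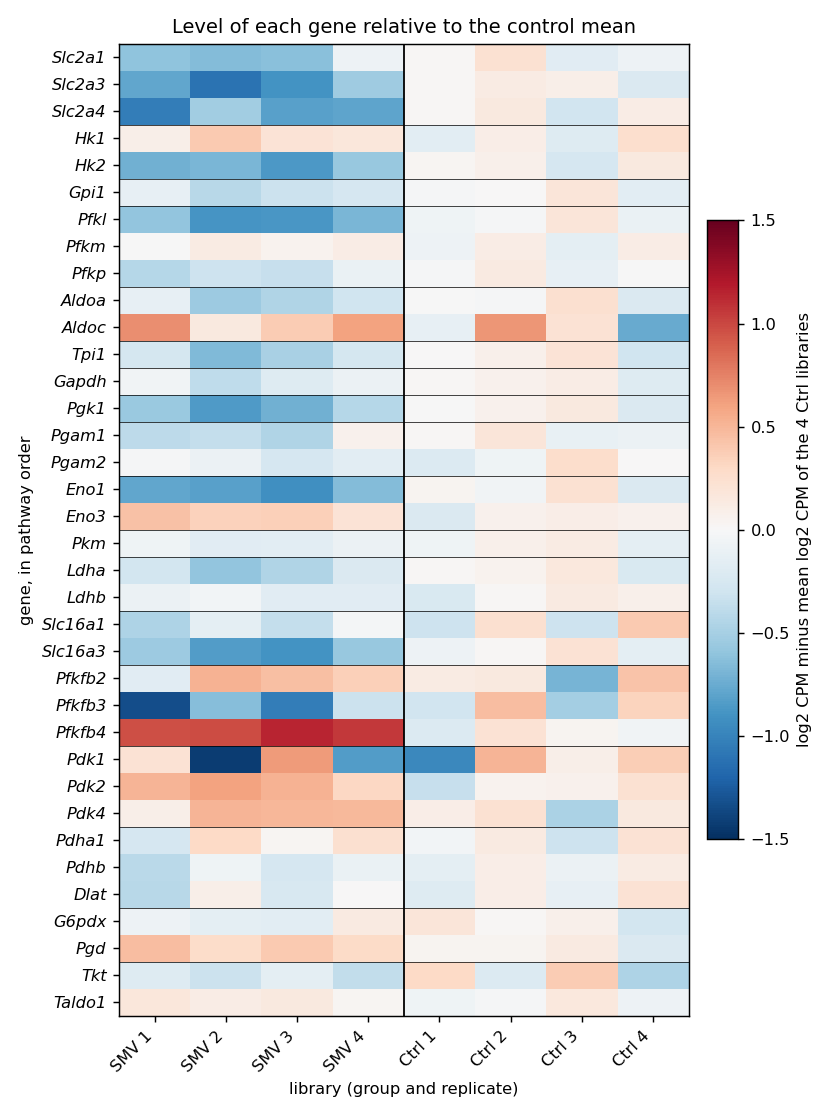
Level of each of the 36 genes (rows, in pathway order) in the 4 SMV and 4 Ctrl libraries (columns), as log2 CPM minus the gene's mean log2 CPM in the 4 Ctrl libraries (blue lower, red higher). Eno1, Pfkl, Pgk1 and Slc16a3 are low in all 4 SMV libraries, Pfkfb4 and Eno3 are high in them, and Pdk1 is high in SMV replicates 1 and 3 and low in SMV replicates 2 and 4.

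**Figure D2:**
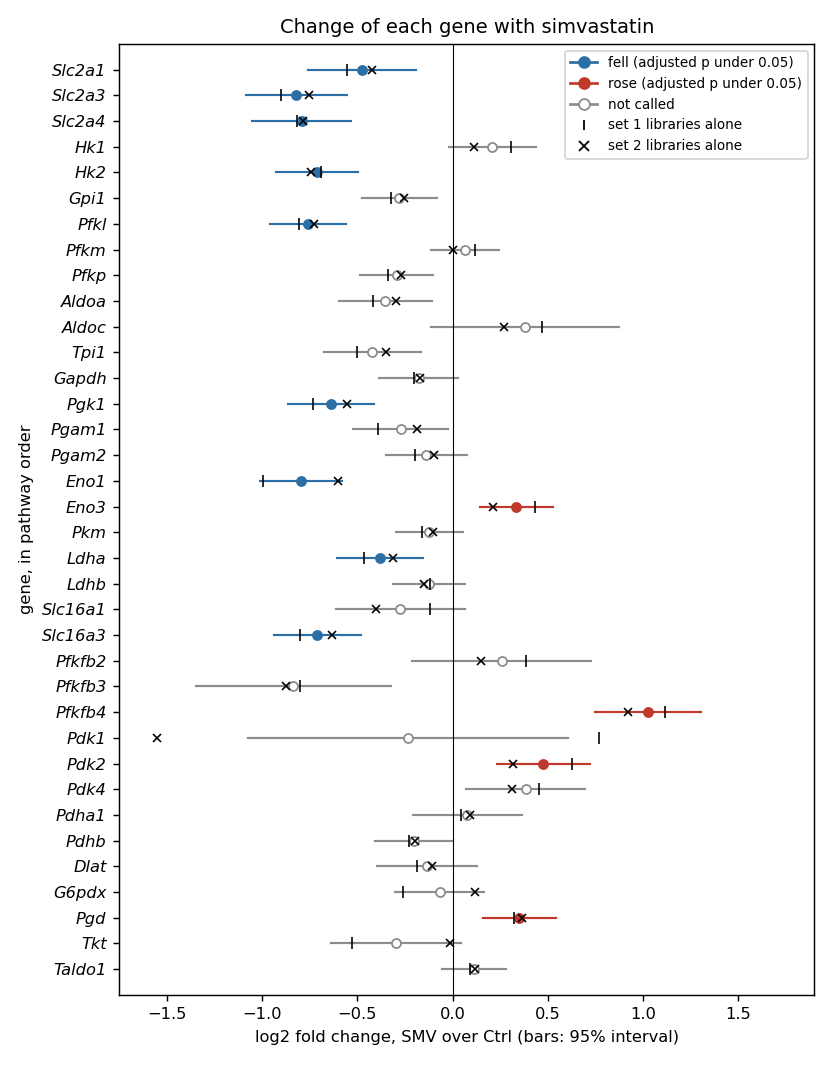
Log2 fold change of each gene, SMV over Ctrl (x axis; bars span the 95% interval), in pathway order, with the values from set 1 and set 2 alone as ticks and crosses. The 9 genes that fell and the 4 that rose are filled, and the 2 sets lie far apart for Pdk1.

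Glucose entry fell in its transporters and in the muscle hexokinase. Slc2a1 encodes GLUT1, the transporter of basal uptake (chromosome 4, 119108711 to 119137983). It had 255, 246, 249.8 and 366 CPM in SMV libraries 1 to 4, against 390.1, 454, 343 and 367 CPM in Ctrl libraries 1 to 4. SMV replicate 4 stood among the Ctrl values and the other SMV libraries lay below all of them. Its log2 fold change was -0.48 (SE 0.14, adjusted p = 0.0462 in edgeR). Without SMV replicate 4 this was -0.64 (edgeR adjusted p = 0.00523), and without any other library the call was lost, with adjusted p up to 0.124. Slc2a3, encoding the high-affinity transporter GLUT3 (chromosome 6, 122727809 to 122801640), had 39.5, 31.3, 36.4 and 46.7 CPM in SMV libraries 1 to 4, against 68.5, 73.5, 71.8 and 58.1 CPM in Ctrl libraries 1 to 4. The groups did not overlap, and the log2 fold change was -0.82 (SE 0.14, adjusted p = 0.00211 in edgeR). Slc2a4, encoding GLUT4, the transporter that insulin brings to the surface of muscle cells (chromosome 11, 69942539 to 69948188), had 52.3, 74.6, 61.2 and 61.9 CPM in SMV libraries 1 to 4, against 109, 119, 88.3 and 116 CPM in Ctrl libraries 1 to 4. All SMV values again lay below all Ctrl values, with a log2 fold change of -0.79 (SE 0.13, adjusted p = 0.00234 in edgeR).

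Hexokinases trap glucose in the cell as glucose phosphate. Hk2, the insulin-responsive form of muscle (chromosome 6, 82725025 to 82774454), had 90.3, 92.3, 81.8 and 99.9 CPM in SMV libraries 1 to 4, against 151, 157, 124 and 165 CPM in Ctrl libraries 1 to 4. Every SMV library was lower than every Ctrl library, and the gene fell by 38.9%, a log2 fold change of -0.71 (SE 0.11, adjusted p = 0.00142 in edgeR), with -0.69 in set 1 and -0.74 in set 2. Hk1, the hexokinase found in nearly all tissues, did not pass the test: it averaged 785 ± 71.9 CPM in SMV and 679 ± 99.7 CPM in Ctrl libraries (SD, n = 4 each), and the groups overlapped. Per length, Hk1 was the more abundant of the pair in every library, at 92.04 ± 8.42 CPM per kb in SMV and 79.6 ± 11.7 CPM per kb in Ctrl libraries, while Hk2 stood at 15.3 ± 1.24 CPM per kb in SMV and 24.97 ± 2.95 CPM per kb in Ctrl libraries. Gpi1, which turns glucose phosphate into fructose phosphate, had a log2 fold change of -0.28 (SE 0.10, adjusted p = 0.0851 in edgeR), and was called with set as a term (adjusted p = 0.0445).

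Phosphofructokinase is the committed step of glycolysis and has 3 genes, named after the tissues in which they were found. Pfkl, the liver type (chromosome 10, 77986947 to 78010083), had 634, 518, 524 and 596 CPM in SMV libraries 1 to 4, against 916, 947, 1087 and 898 CPM in Ctrl libraries 1 to 4. The highest SMV value lay well under the lowest Ctrl value, and the log2 fold change was -0.76 (SE 0.10, adjusted p = 0.000604 in edgeR). Pfkm, the muscle type, averaged 351 ± 14.97 CPM in SMV and 335 ± 31.8 CPM in Ctrl libraries, and Pfkp, the platelet type, 869.6 ± 87.3 CPM in SMV and 1066 ± 78.2 CPM in Ctrl libraries (SD, n = 4 each). Neither passed the test, with log2 fold changes of 0.07 ± 0.09 for Pfkm (SE, edgeR adjusted p = 0.702) and -0.29 ± 0.10 for Pfkp (adjusted p = 0.064); without SMV replicate 4, Pfkp was called, with an adjusted p of 0.0363, and likewise with set as a term in edgeR (0.0228). Summed per length, the 3 genes gave 325 to 364 CPM per kb in SMV and 427 to 462 in Ctrl libraries, a difference of group means of -23.6%.

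The bifunctional enzymes set the level of the fructose bisphosphate that activates phosphofructokinase. Their genes were expressed at low levels here. Pfkfb4 (chromosome 9, 108991778 to 109032228) had 11.6, 11.7, 13.1 and 12.4 CPM in SMV libraries 1 to 4, against 5.15, 6.95, 6.12 and 5.76 CPM in Ctrl libraries 1 to 4. It was higher in each SMV library than in any Ctrl library, with the largest rise among the 36 genes, a log2 fold change of 1.03 (SE 0.14, adjusted p = 0.000745 in edgeR). Pfkfb3, the form with the strongest activating (kinase) activity, had 14.2, 22.9, 17.4 and 28.5 CPM in SMV libraries 1 to 4, against 29.1, 49.1, 25.1 and 44.9 CPM in Ctrl libraries 1 to 4. SMV replicate 4 exceeded Ctrl replicate 3, and the log2 fold change of -0.84 (SE 0.26, adjusted p = 0.051 in edgeR) lay just outside the threshold. It had -0.80 in set 1 and -0.87 in set 2, and was called when SMV replicate 4, Ctrl replicate 1 or Ctrl replicate 3 was left out (adjusted p down to 0.0266). Of the other 10 alternatives 7 called it, among them DESeq2 (adjusted p = 0.0149), set as a term (adjusted p = 0.00128) and set 2 alone (adjusted p = 0.00253). Pfkfb2, the heart form, averaged 11.7 ± 2.305 CPM in SMV and 9.75 ± 2.86 CPM in Ctrl libraries (SD, n = 4 each) and did not pass. It shares exon positions on the opposite strand with Yod1, with the strand setting of the counts not given in the sources used here. On the same strand it shares 1262 exon bases with Gm29427.

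In the lower part of the chain before enolase, Pgk1 fell and its neighbours did not pass the test. Pgk1, phosphoglycerate kinase, which makes ATP (chromosome X, 106187100 to 106203699), had 709, 582, 635 and 777 CPM in SMV libraries 1 to 4, against 1042, 1094, 1161 and 902 CPM in Ctrl libraries 1 to 4. No SMV value reached a Ctrl value, and the log2 fold change was -0.64 (SE 0.12, adjusted p = 0.00359 in edgeR). The glyceraldehyde phosphate dehydrogenase gene Gapdh, often used as a reference gene, averaged 5850.2 ± 571 CPM in SMV and 6620.3 ± 591 CPM in Ctrl libraries (SD, n = 4 each), with a log2 fold change of -0.18 (SE 0.10, adjusted p = 0.296 in edgeR). Around these, Aldoa, the muscle aldolase, had -0.35 (adjusted p = 0.0804 in edgeR), Tpi1, triose phosphate isomerase, -0.42 (adjusted p = 0.0505) and Pgam1, the mutase of most tissues, -0.27 (adjusted p = 0.183), none of them past the threshold. Each of these was called when 1 library was left out, Aldoa without SMV replicate 1 (adjusted p = 0.0491), Tpi1 without Ctrl replicate 4 (adjusted p = 0.0224) and Pgam1 without SMV replicate 4 (adjusted p = 0.0316). With set as a term in edgeR, Aldoa (adjusted p = 0.043) and Tpi1 were called, and Tpi1 also with DESeq2, limma-voom and no filter. Aldoc, the brain aldolase, had 0.38, and the muscle mutase Pgam2 -0.14, with overlapping groups in both. Pkm, pyruvate kinase, which makes the pyruvate and ATP of the last step, averaged 5235 ± 187 CPM in SMV and 5698 ± 483 CPM in Ctrl libraries (SD, n = 4 each), and did not pass the test.

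The 2 enolase genes moved in opposite directions. Enolase makes phosphoenolpyruvate, and in heart development the embryonic form Eno1 gives way to the muscle form Eno3. Eno1 (chromosome 4, 150236721 to 150248879) had 1795, 1741, 1631 and 1963 CPM in SMV libraries 1 to 4, against 3159, 2975, 3594 and 2641 CPM in Ctrl libraries 1 to 4. The groups were far apart, the gene fell by 42.4%, and the log2 fold change was -0.79 (SE 0.11, adjusted p = 0.000716 in edgeR), with -0.997 in set 1 and -0.60 in set 2. Eno3 (chromosome 11, 70657202 to 70662513) had 2503, 2340.5, 2350.2 and 2121 CPM in SMV libraries 1 to 4, against 1579, 1923, 1964 and 1923 CPM in Ctrl libraries 1 to 4. All SMV libraries lay above all Ctrl libraries, of which replicate 1 was the lowest by a wide margin, and the log2 fold change was 0.33 (SE 0.10, adjusted p = 0.0392 in edgeR), with 0.44 in set 1 and 0.21 in set 2. The call of Eno3 held without Ctrl replicate 3 and was lost without any other single library, with adjusted p up to 0.113. Per length, Eno3 was the more abundant in every library, at 1339 ± 90.3 CPM per kb in SMV and 1062 ± 104 CPM per kb in Ctrl libraries, against 331 ± 25.8 CPM per kb in SMV and 575 ± 73.8 CPM per kb in Ctrl libraries for Eno1. The groups overlapped in the sum of both per length, at 1585 to 1773 CPM per kb in SMV and 1495 to 1798 in Ctrl libraries. These per-length levels rest on the deposited gene lengths, 5379 bases for Eno1 and 1739 for Eno3, which weigh Eno1 less. In CPM without length, Eno1 stood above Eno3 in every Ctrl library and below it in every SMV library. The fall of Eno1 in mean CPM was larger than the rise of Eno3.

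At the lactate end, Slc16a3 encodes MCT4, the carrier through which glycolytic cells export lactate (chromosome 11, 120948480 to 120960868). It had 517, 421, 405 and 506 CPM in SMV libraries 1 to 4, against 711, 759.9, 876 and 677 CPM in Ctrl libraries 1 to 4. The groups were apart, with a log2 fold change of -0.71 (SE 0.12, adjusted p = 0.00202 in edgeR). Slc16a1, encoding MCT1, which carries lactate in either direction, averaged 128 ± 17.3 CPM in SMV and 154 ± 38.9 CPM in Ctrl libraries (SD, n = 4 each) and did not pass. Ldha, the lactate dehydrogenase subunit of muscle (chromosome 7, 46841475 to 46855627), had 5688, 4567, 5045 and 5909.7 CPM in SMV libraries 1 to 4, against 6949, 7139, 7671 and 5871 CPM in Ctrl libraries 1 to 4. SMV replicate 4 stood just above Ctrl replicate 4, and the other values did not cross. The log2 fold change was -0.38 (SE 0.12, adjusted p = 0.0453 in edgeR); the call held without Ctrl replicate 4 and was lost without any other single library, with adjusted p up to 0.139, and also with library totals (adjusted p = 0.0632). Ldhb, the heart subunit, which favours lactate use, averaged 1414 ± 65.9 CPM in SMV and 1540.3 ± 165 CPM in Ctrl libraries (SD, n = 4 each) and did not pass the test.

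Pyruvate dehydrogenase links glycolysis to the tricarboxylic acid cycle, and of the 3 listed kinase genes for its inactivation 1 rose. Pdk3, a further kinase gene, was placed with the further pyruvate and lactate genes and was not called. Pdk2, a widely expressed kinase (chromosome 11, 95026258 to 95041354), had 381, 405, 384 and 332 CPM in SMV libraries 1 to 4, against 210.3, 277, 278 and 314 CPM in Ctrl libraries 1 to 4. All SMV libraries were above all Ctrl libraries, and the log2 fold change was 0.48 (SE 0.12, adjusted p = 0.0234 in edgeR), with 0.63 in set 1 and 0.32 in set 2. It was lost without SMV replicate 1, 2 or 3 or Ctrl replicate 2, with adjusted p up to 0.0725. Pdk4, the kinase induced by fasting and fatty acids, averaged 76.3 ± 10.02 CPM in SMV and 58.5 ± 11.7 CPM in Ctrl libraries (SD, n = 4 each), a log2 fold change of 0.38 (SE 0.16, adjusted p = 0.138 in edgeR).

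Pdk1, the kinase known as a target of hypoxia-inducible factor (chromosome 2, 71873224 to 71903858), had 201, 64.04, 269 and 96.4 CPM in SMV libraries 1 to 4, against 87.99, 246, 183 and 224 CPM in Ctrl libraries 1 to 4. In set 1 both SMV libraries exceeded both Ctrl libraries, whereas in set 2 both SMV libraries lay far below both Ctrl libraries. The log2 fold change was 0.77 in set 1 (edgeR adjusted p = 0.234), -1.55 in set 2 (adjusted p = 0.000528) and -0.23 (SE 0.43, adjusted p = 0.785 in edgeR) over both. The difference between the sets, -2.34, had an edgeR p of 0.00047 before and 0.0755 after adjustment over all genes. The subunit genes of the complex, Pdha1, Pdhb and Dlat, had log2 fold changes of 0.08, -0.20 and -0.14, none past the threshold (edgeR adjusted p = 0.791, 0.229 and 0.566).

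**Figure D3:**
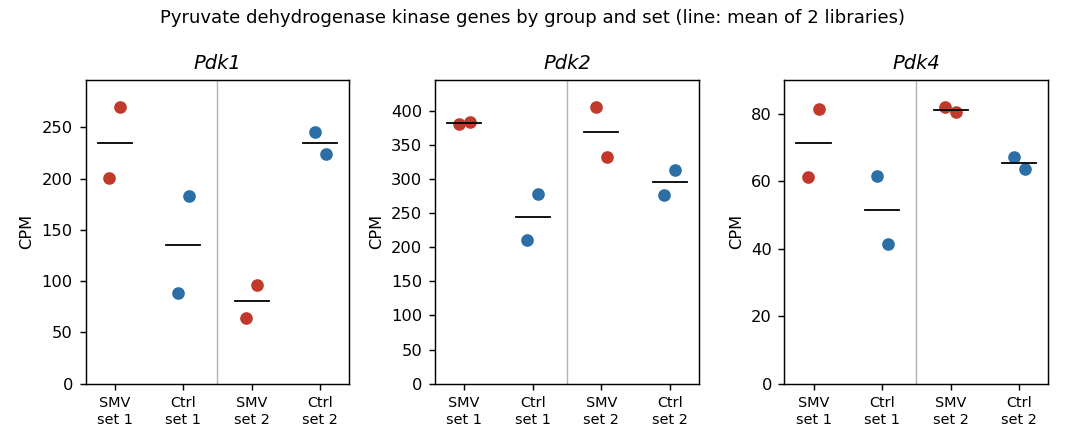
CPM of the pyruvate dehydrogenase kinase genes Pdk1, Pdk2 and Pdk4 in each library (points), by group and set, with the mean of 2 libraries as a line. Pdk1 is higher in SMV than in Ctrl libraries in set 1 and lower in set 2, and Pdk2 is higher in SMV libraries in both sets.

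Of the 4 pentose phosphate genes 1 rose and the others did not pass the test. Pgd, which makes NADPH in the oxidative branch (chromosome 4, 149149991 to 149166771), had 183, 161, 174 and 162 CPM in SMV libraries 1 to 4, against 136, 136, 145 and 114 CPM in Ctrl libraries 1 to 4. No Ctrl library reached an SMV library, and the log2 fold change was 0.35 (SE 0.10, adjusted p = 0.0317 in edgeR). This call held without Ctrl replicate 3 and was lost without any other single library, with adjusted p up to 0.0961. G6pdx, which opens the branch, had 58.3 to 71.01 CPM in SMV and 53.5 to 73.3 CPM in Ctrl libraries, with a log2 fold change of -0.26 in set 1 and 0.12 in set 2. Its exons share 418 bases with Ikbkg on the opposite strand, a gene of similar level. In the non-oxidative branch, which moves carbon between sugars, Tkt had -0.30 and Taldo1 0.11 (edgeR adjusted p = 0.296 and 0.443). Tkt had -0.53 in set 1 and -0.01 in set 2, a difference with an edgeR p of 0.0191 before and 0.282 after adjustment.

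The make-up of the isoenzyme families was also compared, as each gene's share of its family's CPM per kb in each library. Only family genes among the 36 were counted in, and the shares rest on the deposited gene lengths. Left out were Pfkfb1, with means of 1.25 CPM per kb in SMV and 1.61 in Ctrl libraries, and others such as Slc2a8, Pdk3 and Eno2. Pfkfb1 thus stood above Pfkfb4 (1.23) in Ctrl libraries. Slc2a8 had 11.7 CPM per kb in SMV and 12.8 in Ctrl libraries. The enolase share of Eno1 was 19.9% ± 2.14 in SMV and 35.1% ± 3.82 in Ctrl libraries (SD, n = 4 each), -15.2 percentage points. Pfkl made up 37.9% ± 3.05 in SMV and 49.1% ± 3.799 in Ctrl libraries of phosphofructokinase, and Pfkm 34.9% ± 1.93 in SMV and 25.4% ± 2.32 in Ctrl libraries. Hk1 made up 85.7% ± 1.47 in SMV and 76.1% ± 1.597 in Ctrl libraries of the hexokinase pair. Of the muscle forms, Eno3 and Pfkm made up a larger share of their families in every SMV library than in any Ctrl library, Hk2 and Aldoa a smaller one, and Pgam2 and Ldha overlapped. Among the bifunctional enzymes, Pfkfb3 held 39.4% ± 6.31 in SMV and 64.8% ± 4.12 in Ctrl libraries and Pfkfb4 37.2% ± 5.77 in SMV and 17.2% ± 4.36 in Ctrl libraries. The aldolase share of Aldoa was 96.5% ± 0.201 in SMV and 97.9% ± 0.776 in Ctrl libraries. In these 7 of the 18 shares tested the groups did not overlap, which gave each the smallest p that an exact two-sided permutation test of 4 against 4 libraries allows, 0.0286; adjusted over the 18 shares it was 0.0735, so that 0 of 18 passed 0.05. With that smallest p, no share could pass unless more than 7 of the 18 stood apart. The count of 0 therefore does not show that the shares were unchanged. The shares of a family depend on each other, and all rest on the same counts as the tests of single genes. Among the other families, Slc2a1 held 77.1% ± 3.38 in SMV and 73.2% ± 1.15 in Ctrl libraries of the glucose transporters, Ldha 63.9% ± 3.44 in SMV and 67.9% ± 3.44 in Ctrl libraries of lactate dehydrogenase, Slc16a3 74.99% ± 3.304 in SMV and 80.2% ± 5.16 in Ctrl libraries of the lactate carriers and Pdk2 74.1% ± 5.12 in SMV and 68.1% ± 3.47 in Ctrl libraries of the kinases, with overlapping groups in all of them.

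**Figure D4:**
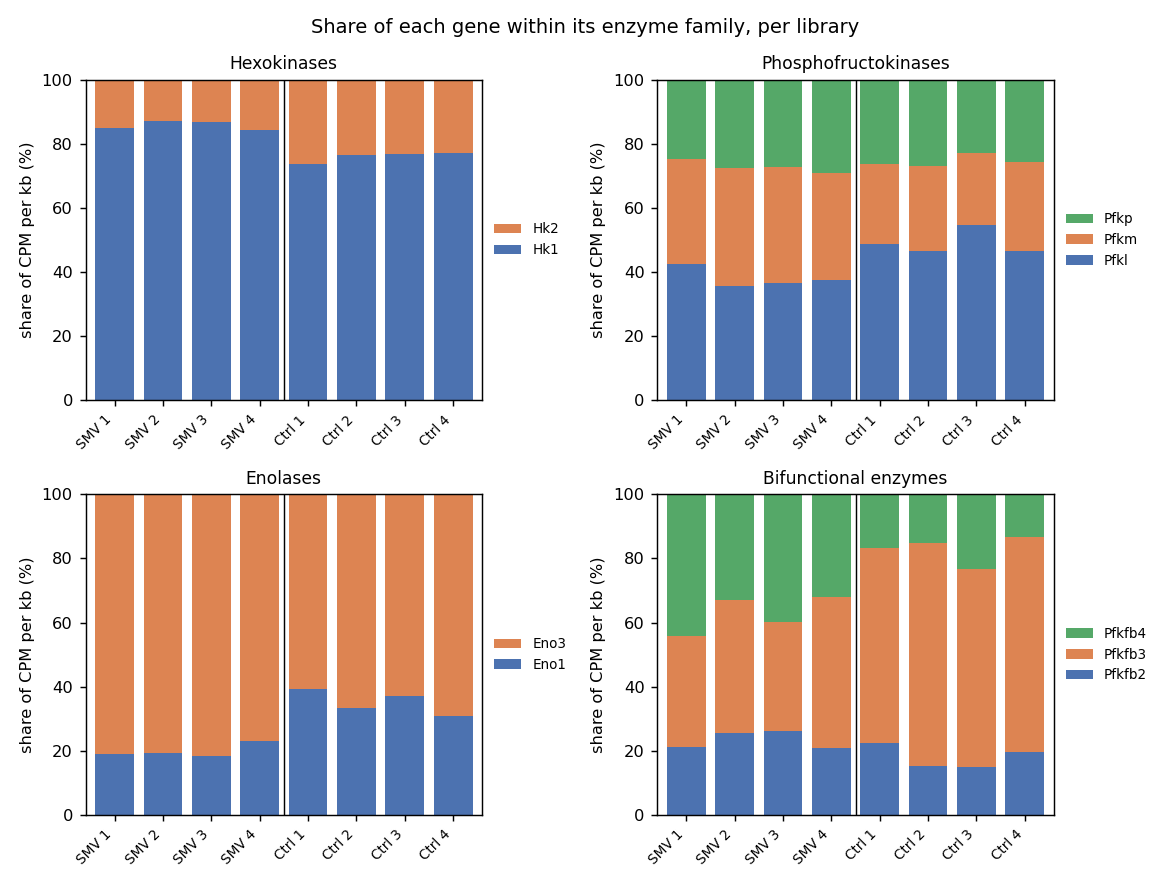
Share of each gene in the summed CPM per kb of its family's genes among the 36 (y axis, %), in each SMV and Ctrl library, for hexokinases, phosphofructokinases, enolases and bifunctional enzymes. Eno1 holds 19.9% of enolase on average in SMV libraries and 35.1% in Ctrl libraries.

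Summed over the genes of a step, per length, glucose transport stood at 93.1 to 129 CPM per kb in SMV and 133 to 174 in Ctrl libraries, the lactate carriers at 103 to 128 CPM per kb in SMV and 161 to 192 in Ctrl libraries, and phosphoglycerate kinase at 259 to 346 CPM per kb in SMV and 402 to 518 in Ctrl libraries. In these steps, in phosphofructokinase and in lactate dehydrogenase (2331 to 2653 CPM per kb in SMV and 2803 to 3393 in Ctrl libraries) the groups did not overlap. The differences of group means were -31.96% for glucose transport, -34.6% for the lactate carriers and -35.6% for phosphoglycerate kinase. Hexokinase (2.58%) and enolase (2.04%) had sums per length close to each other in both groups, although a gene of each step fell. For enolase this depends on the deposited gene lengths, 5379 bases for Eno1 and 1739 for Eno3. In CPM without length, Eno1 averaged 1782 in SMV and 3092 in Ctrl libraries, and Eno3 2329 in SMV and 1847 in Ctrl libraries. The fall of Eno1 was thus larger than the rise of Eno3. The listed kinases of pyruvate dehydrogenase, without Pdk3, summed to 140.4 to 179 CPM per kb in SMV and 95.4 to 146 in Ctrl libraries. These sums were not tested, and the most abundant gene of a step weighs most in them. They cover only genes among the 36 and rest on the deposited gene lengths.

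**Figure D5:**
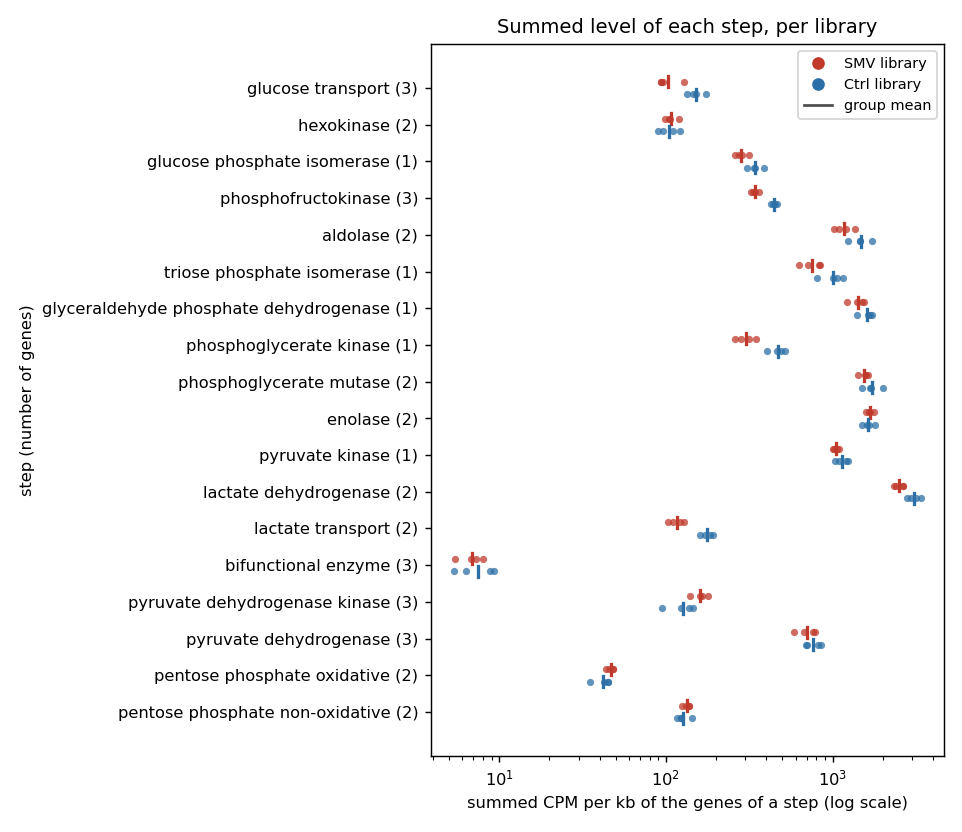
Summed CPM per kb of the genes of each step (x axis, log scale) in each SMV and Ctrl library (points), with group means as short lines. SMV and Ctrl libraries stand apart for glucose transport, phosphofructokinase, phosphoglycerate kinase, lactate dehydrogenase and lactate transport, and overlap for enolase.

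The promoters of the called genes were read from the RefSeq table of build GRCm38.p6, which matched 34 of the 36 genes, as the 250 bases before a start. They were searched on both strands for the letters ACGTG, which occur in many binding sites of hypoxia-inducible factor, a regulator known to act on many glycolysis genes, and which also lie inside the E-box CACGTG. A gene was counted if any of its listed starts held a match. Of the 7 matched genes that fell, 5 held ACGTG (71.4%), as did 1 of the 4 that rose and 8 of the 23 without a call. Over all genes of the table, whether tested here or not, the share was 18.5%. Over genes with a promoter of at least 60% G and C it was 24.3%, with only those promoters searched. The letters and the G and C minimum were chosen after values were seen, and these shares were not tested. CACGTG occurred in 6 of the 34 genes (17.6%), against 6.86% of all genes. The promoters below are those of the 5 genes that fell and held a match, followed by that of Pfkfb4, the gene with the largest rise, which held none; each is shown 5′ to 3′ with ACGTG and its reverse complement CACGT in capitals.
Slc2a1, chr4:119108495-119108744, plus strand: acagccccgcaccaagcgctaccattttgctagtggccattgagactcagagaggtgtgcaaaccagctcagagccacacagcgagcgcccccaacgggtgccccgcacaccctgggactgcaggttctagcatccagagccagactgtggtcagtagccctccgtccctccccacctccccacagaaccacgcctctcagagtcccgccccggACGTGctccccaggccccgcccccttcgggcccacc
Hk2, chr6:82774455-82774704, minus strand: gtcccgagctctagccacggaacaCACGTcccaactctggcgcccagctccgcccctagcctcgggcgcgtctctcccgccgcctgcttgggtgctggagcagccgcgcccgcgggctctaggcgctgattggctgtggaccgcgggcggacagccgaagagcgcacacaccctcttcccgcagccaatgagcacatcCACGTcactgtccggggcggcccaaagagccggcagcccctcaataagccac
Pgk1, chrX:106186850-106187099, plus strand: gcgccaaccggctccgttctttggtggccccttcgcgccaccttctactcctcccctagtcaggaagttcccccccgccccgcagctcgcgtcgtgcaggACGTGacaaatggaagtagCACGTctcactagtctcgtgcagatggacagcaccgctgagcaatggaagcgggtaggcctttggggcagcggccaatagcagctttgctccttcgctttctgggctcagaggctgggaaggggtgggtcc
Ldha, chr7:46845554-46845803, plus strand: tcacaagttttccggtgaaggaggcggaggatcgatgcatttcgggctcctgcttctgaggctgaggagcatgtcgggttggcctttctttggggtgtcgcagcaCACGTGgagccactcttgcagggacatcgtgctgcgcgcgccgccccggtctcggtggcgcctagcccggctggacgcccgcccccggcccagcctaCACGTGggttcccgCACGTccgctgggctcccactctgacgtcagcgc
Slc16a3, chr11:120948817-120949066, plus strand: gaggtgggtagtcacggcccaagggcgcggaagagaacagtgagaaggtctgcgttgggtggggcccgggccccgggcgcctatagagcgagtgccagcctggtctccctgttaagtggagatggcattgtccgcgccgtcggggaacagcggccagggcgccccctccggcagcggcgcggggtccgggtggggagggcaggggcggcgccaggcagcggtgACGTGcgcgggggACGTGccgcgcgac
Pfkfb4, chr9:108991652-108991901, plus strand: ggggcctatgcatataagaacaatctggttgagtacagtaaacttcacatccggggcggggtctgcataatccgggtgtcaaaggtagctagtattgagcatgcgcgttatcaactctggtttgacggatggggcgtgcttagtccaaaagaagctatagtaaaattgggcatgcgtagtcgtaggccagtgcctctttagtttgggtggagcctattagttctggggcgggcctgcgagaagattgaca

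The Ldha promoter shown held 5 matches, 4 of them the readings on both strands of 2 CACGTG. Hk2, Pgk1 and Slc16a3 held 2 each and Slc2a1 held 1, at base -36 counted back from the start. Ldha has 2 listed starts: the other held no match, and the last downstream bases listed for the start shown, unlike those for the other, were not found in a GENCODE transcript of the gene. The G and C content of the promoters shown was 66.4% for Slc2a1, 69.6% for Hk2, 62.8% for Pgk1, 67.2% for Ldha and 73.6% for Slc16a3, and 50% for Pfkfb4. Neither Pfkl nor Eno1, which fell by 40.96% and 42.4%, held the letters in a listed promoter. A match is a stretch of letters and not a measured binding site, and no match says only that these letters are not in this window.

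Other genes around the pathway moved in few cases. Of 16 tested genes of 23 further glycolysis isoenzymes and entry steps, 2 fell and 1 rose, against 9.61% and 7.79% of all genes. Galk1, which brings galactose into the pathway, fell to 105 CPM on average in SMV libraries, against 192 in Ctrl libraries (-0.87 on the log2 scale, edgeR adjusted p = 0.0105), and Pgm1, which links glycogen to glycolysis, to 648, against 889 CPM in Ctrl libraries. The neuronal enolase Eno2 rose to 19.9 CPM in SMV libraries, against 12.5 CPM in Ctrl libraries (0.67, edgeR adjusted p = 0.00868). Of 16 further pyruvate and lactate genes 1 fell: Bsg, which encodes basigin, the partner that MCT1 and MCT4 need to reach the cell surface, had 1075, 945, 892 and 1038 CPM in SMV libraries 1 to 4, against 1538, 1698, 1959 and 1368 CPM in Ctrl libraries 1 to 4. The groups did not overlap, with a log2 fold change of -0.73 (SE 0.12, adjusted p = 0.00196 in edgeR). Of 8 tested of 9 further pentose phosphate genes, 1 fell, H6pd, the enzyme that opens the pathway inside the endoplasmic reticulum (-0.99, edgeR adjusted p = 0.00937).

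The next counts stand beside 9.61% of all genes tested that fell and 7.79% that rose. Of 12 glycogen genes 1 fell, the muscle glycogen synthase Gys1 (-0.32, edgeR adjusted p = 0.0468), whose exons share 310 bases with Ruvbl2 on the opposite strand. The call was lost without any single library, with adjusted p up to 0.128. Of 10 genes of the shuttles that carry cytosolic NADH electrons into mitochondria 1 fell, the cytosolic malate dehydrogenase Mdh1 (-0.40, edgeR adjusted p = 0.0321), a call that was lost without SMV replicate 1 or 3 or Ctrl replicate 2 or 4 (adjusted p up to 0.0964). Of 7 genes of the hexosamine pathway, which turns fructose phosphate into sugar donors for glycosylation, 2 rose. Gfpt2, an enzyme of its entry step, had 118, 97.04, 127 and 109.9 CPM in SMV libraries 1 to 4, against 70.2, 54.9, 67.6 and 47.4 CPM in Ctrl libraries 1 to 4. Uap1, which makes the final donor, had 48.4, 45.04, 52.6 and 51.1 CPM in SMV libraries 1 to 4, against 26.4, 27.7, 29.1 and 28.2 CPM in Ctrl libraries 1 to 4. Both stood higher in every SMV than in every Ctrl library, with log2 fold changes of 0.91 (SE 0.14, adjusted p = 0.00144 in edgeR) for Gfpt2 and 0.82 (SE 0.10, adjusted p = 0.000267 in edgeR) for Uap1.

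Of 25 known regulators of glucose use 1 fell and 1 rose, beside 9.61% and 7.79% of all genes tested. Egln3, an oxygen-sensing prolyl hydroxylase and itself a known target of hypoxia-inducible factor, had 55.6, 19.9, 43.7 and 54.2 CPM in SMV libraries 1 to 4, against 159.9, 112, 169.8 and 80.4 CPM in Ctrl libraries 1 to 4. The groups did not overlap, with a log2 fold change of -1.59 (SE 0.32, adjusted p = 0.00664 in edgeR). Txnip, which holds back glucose uptake and is induced by glucose, had 188, 238, 179 and 312 CPM in SMV libraries 1 to 4, against 114, 163, 64.7 and 136 CPM in Ctrl libraries 1 to 4. Each SMV library was higher than each Ctrl library, with a log2 fold change of 0.94 (SE 0.26, adjusted p = 0.0332 in edgeR). Its call was lost without SMV replicate 2 or 4 or Ctrl replicate 1 or 4, with adjusted p up to 0.0843. Hif1a itself had a log2 fold change of -0.25 (SE 0.31, adjusted p = 0.667 in edgeR), and Myc, which drives many glycolysis genes in growing cells, -0.82 (SE 0.26, adjusted p = 0.0528 in edgeR), neither past the threshold; Myc was called under 6 of 18 alternatives, among them without Ctrl replicate 2 or 4 (adjusted p down to 0.0171) and set 1 alone (adjusted p = 0.00899). The median log2 fold changes of the further lists ran from -0.16 for the NADH shuttles to 0.14 for the glycogen genes, against 0.01 over all genes.

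Near-identical copies and overlapping genes bear on how these counts read. A search of all annotated transcripts for copies of at least 95% identity over 200 bases found copies of 10 of the 36 genes, 77 of them for Gapdh and 3 for Eno1. Reads counted on the copies made up at most 1.92% of the reads of a gene and its copies together (Gapdh), and at most 0.944% for Eno1. The handling of reads with several matches was not given in the sources used here. If such reads were not counted, they are missing from these shares, which then set no limit on them. Among the overlapping genes, Pkm shares 767 exon bases on the same strand with Gm49759, which had a mean of 53.95 CPM, against 5461 CPM for Pkm. Pfkfb2 shares 1262 with Gm29427, which had a mean of 0.0304 CPM, against 10.7 CPM for Pfkfb2. If reads on shared bases were counted for neither gene, these levels do not show how many are missing.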

How the data were processed

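Counts per gene were used for 4 SMV and 4 Ctrl libraries, grouped by the treatment label. The authors deposited raw counts with Ensembl identifiers and gene lengths, and the submitters' processing notes name STAR 2.5.2b, Trimmomatic 0.36, Subread 1.5.2, featureCounts and the builds GRCm38 and mm10. Annotation release, strand setting, multimapping and time in simvastatin were not given in the sources used here. Symbols were taken from GENCODE for this build (99.3% of identifiers matched, and 90.7% of positions were identical). A chi-square test over genes found every pair of libraries in a group to differ, and each counted as 1 replicate.

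CPM were scaled with TMM, and per-kb levels divide them by the deposited gene length. Genes were kept with filterByExpr and tested with edgeR 4.0.16 (R 4.3.3), the quasi-likelihood F test, two-sided, treatment as the only term, Benjamini-Hochberg adjustment over 16126 genes at 0.05 (biological coefficient of variation 0.222), and the interaction of treatment and set likewise. The edgeR step was tested on simulated data. Isoenzyme shares were tested by exact permutation (Python 3.11.15 with scipy 1.17.1), and copies were sought with blastn 2.17.0. The alternatives tried were limma-voom (limma 3.58.1), DESeq2 1.42.0 with its Wald test, its size factors in edgeR, scaling by library totals, no filter, a filter of 1 CPM in 4 libraries, the replicate number as a block, set as a term, each set alone and each library left out. All 36 genes were named, with values per library for those called, and from each further list the called genes. The genes and lists were chosen with earlier results of these data known. Promoter motifs, the G and C minimum and the Hif1a and Arrdc4 values by set were chosen after values were seen.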

Additional observations from a re-analysis of the deposited data

Results flagged for a closer look

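Among 72 groups of 4 libraries (36 genes in SMV and in Ctrl), 4 held a library far from the other 3 (its gap to the nearest of them, over the whole range, above Dixon's 95% critical value), and chance flags about 1 in 20. Slc2a1 stood at 366.2 CPM in SMV replicate 4, against 246.1 to 254.7 CPM in the other SMV libraries. Pgam1 also stood highest in SMV replicate 4, at 370.1 CPM, against 259.4 to 275.1 CPM in the others. Eno3 was lowest in Ctrl replicate 1, at 1579 CPM, against 1923 to 1964 CPM in the other Ctrl libraries. Pdk4 was lowest in SMV replicate 1, at 61.31 CPM, against 80.62 to 81.92 CPM in the other SMV libraries.

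The treatment effect on Pdk1 took opposite signs in the 2 sets, with log2 fold changes of 0.77 in set 1 and -1.55 in set 2. Their difference of -2.342 had an edgeR p of 0.00047, and an adjusted p of 0.0755 over all genes.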

How the results depend on the processing

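No called result changed sign under an alternative. Over 50 named genes and 18 alternatives, 793 of 900 values kept their side of the threshold, 75 lost it and 32 gained it. The number of the 36 genes that fell ran from 7 to 11 with each library left out and was 14 with set as a term; the number that rose ran from 1 to 4, and was 2 with no filter, 1 with the replicate block and 1 in set 1 alone. The median log2 fold change of the 36 ran from -0.23 to -0.17 with a library left out. Over all genes 1185 to 1417 fell and 817 to 1115 rose with a library left out, and 979 and 648 in set 1 alone.

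The counts of called genes in the further lists moved most as follows, and other settings stayed within 1.5 times. Other glycolysis genes (3) had 1 in set 1, 5 in set 2 and 3 to 4 with a library left out. Pyruvate and lactate genes (1) had 2 with the block, 2 with set as a term, 3 in set 2 and 1 to 2 with a library left out. Pentose phosphate genes (1) had 2 with set as a term, 0 in set 1 and 3 in set 2. Glycogen genes (1) had 3 with library totals, 3 with DESeq2, 2 with voom, 4 with no filter, 2 with the 1 CPM filter, 3 with the block, 3 with set as a term, 2 in set 1, 5 in set 2 and 0 to 2 with a library left out. NADH shuttle genes (1) had 2 with DESeq2, 2 with no filter, 2 with the block, 5 with set as a term, 0 in set 1, 4 in set 2 and 0 to 1 with a library left out. Regulators (2) had 4 with no filter, 5 in set 2 and 1 to 3 with a library left out. The cause of these differences was not tested.

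No pairing of the libraries by replicate number was seen. Deviations of same-numbered libraries correlated by -0.16 to 0.13, and those of other-numbered libraries of the same set by -0.36 to 0.36. Of 4 SMV libraries 0 correlated best with the Ctrl library of their number. With 4 libraries in each group these values cannot exclude a pairing. With the replicate number as a block 8 of the 36 genes fell and 1 rose: Slc2a1, Ldha, Eno3, Pdk2 and Pgd were not called, and Pfkfb3 was. Isoenzyme shares could not pass 0.05 within sets (smallest exact p 0.0556) or with a library left out (0.0571).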

Other observations

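Hif1a, which encodes the oxygen-regulated subunit of hypoxia-inducible factor, had log2 fold changes of opposite sign in the sets, 0.51 in set 1 and -0.79 in set 2, as had Pdk1; Hif1a and Arrdc4 were chosen here after their values were seen. Its levels were 301 and 466 CPM in SMV and 199 and 332 CPM in Ctrl libraries of set 1, and 397 and 317 CPM in SMV and 606 and 624 CPM in Ctrl libraries of set 2. The difference of its log2 fold changes, set 2 minus set 1, was -1.32 (adjusted p = 0.162 over all genes in edgeR), short of the threshold, which 9 of 16126 genes passed. Arrdc4, a relative of Txnip, had log2 fold changes of 1.13 in set 1 and -0.79 in set 2 (edgeR adjusted p of the difference = 0.0972), while Txnip itself had 1.02 and 0.88.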
